A study of Mus musculus with 8 samples.

Results

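The 9 genes described here act when T cells leave lymphoid organs, stay in them or bind vascular selectins. They were the sphingosine-1-phosphate (S1P) receptor genes *S1pr1* and *S1pr4*, the retention gene *Cd69*, the adhesion receptor genes *Cd44* and *Selplg*, and the glycosyltransferase genes *Fut7*, *Gcnt1*, *St3gal4* and *St3gal6*. They were picked by symbol from the 23284 genes of the expression tables, with earlier results of these data known. All 9 were among the 11198 genes with a mean of at least 1 FPKM (fragments per kilobase of transcript, scaled to a fixed number of mapped fragments) that entered the tests. RNA sequencing had been done on 8 libraries of mouse CD4 T cells, 2 each of naive, Th1, Th2 and Th17 cells. All cells came from the spleens of DO11.10 Tg mice, whose T cells carry a transgenic T cell receptor for a peptide of ovalbumin (OVA). Naive cells were sorted for low surface CD44 and a further marker and were not cultured. The Th1, Th2 and Th17 cells were grown from such cells for 6 days with OVA peptide and irradiated splenocytes from which T cells had been removed. For Th1 cells the medium held 30 U/ml IL-2 with 100 U/ml IL-12 and antibody against IL-4 (1 μg/ml), and for Th2 cells 30 U/ml IL-2 with 100 U/ml IL-4 and antibody against IFN-γ (10 μg/ml). For Th17 cells it held IL-6, IL-1β and IL-23 (10 ng/ml of each) with antibodies against IL-4 and IFN-γ (10 μg/ml of each). Differences from naive cells therefore combine activation, culture and the added cytokines, which cannot be told apart here. Whether both libraries of a group came from separate mice or cultures is not stated, so the p-values measure only the spread between these libraries.

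S1P is abundant in blood and lymph, and T cells follow it through S1PR1 when they exit lymph nodes, spleen and thymus. CD69, which appears early after activation, binds S1PR1 and draws it from the cell surface, so that the cell is retained. For entry into inflamed tissue, P- and E-selectin on endothelium bind sialylated and fucosylated O-glycans on PSGL-1, the product of *Selplg*. GCNT1 makes the core 2 branch of these glycans, ST3GAL4 and ST3GAL6 add α2,3-linked sialic acid, and FUT7 adds the fucose that completes sialyl Lewis x. CD44 is the receptor for hyaluronan and is a classic surface marker of antigen-experienced T cells.

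The deposited values corresponded to between 14463466 and 21058286 fragments per library, fewest in the naive libraries. Pearson's r between both libraries of a group, across tested genes, lay between 0.953 and 0.960. Summed FPKM of lineage genes was highest in the group of that label. It was 898 to 1040 over Th1 genes in the Th1 libraries and 373 to 406 over Th2 genes in the Th2 libraries. Over Th17 genes it was 1367 to 1394 in the Th17 libraries. Th1 genes also summed to 112 to 132 in Th17 and 30.2 to 37.9 in Th2 libraries, mostly through *Il12rb2* (mean FPKM 119 and 33.1). The Th2 gene *Il13* had a mean of 9.54 in Th17 cells. T cell genes summed to between 937 and 1736, and B cell genes to between 2.15 and 11.4. Dendritic cell genes summed to at most 2.66 and NK cell genes to at most 0.625. Genes of myeloid cells summed to between 7.94 and 27.8, highest in the Th2 libraries. Of these genes, *Lyz2* and *Emr1* were highest in Th2 cells (mean FPKM 15.8 and 5.26). *Cd14* and *Itgam* were highest in Th17 cells (4.08 and 1.96), and *Csf1r* in naive cells (3.52). CD8 T cell genes summed to 54.5 and 93.4 in the naive libraries, through *Cd8b1*, against 8.94 to 13.0 in the effector libraries. The part of these other cells in the results was not tested, and in such bulk samples fewer cells of a type and less RNA per cell cannot be told apart. Every one of the 72 values of the 9 genes had the status OK in its table. They rested on between 2.68 and 19555 fragments, and the intervals of the tables and these fragment numbers cover counting error only. FPKM per gene does not separate isoforms, which matters for *Cd44*, a gene with many spliced forms.

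**Figure D1:**
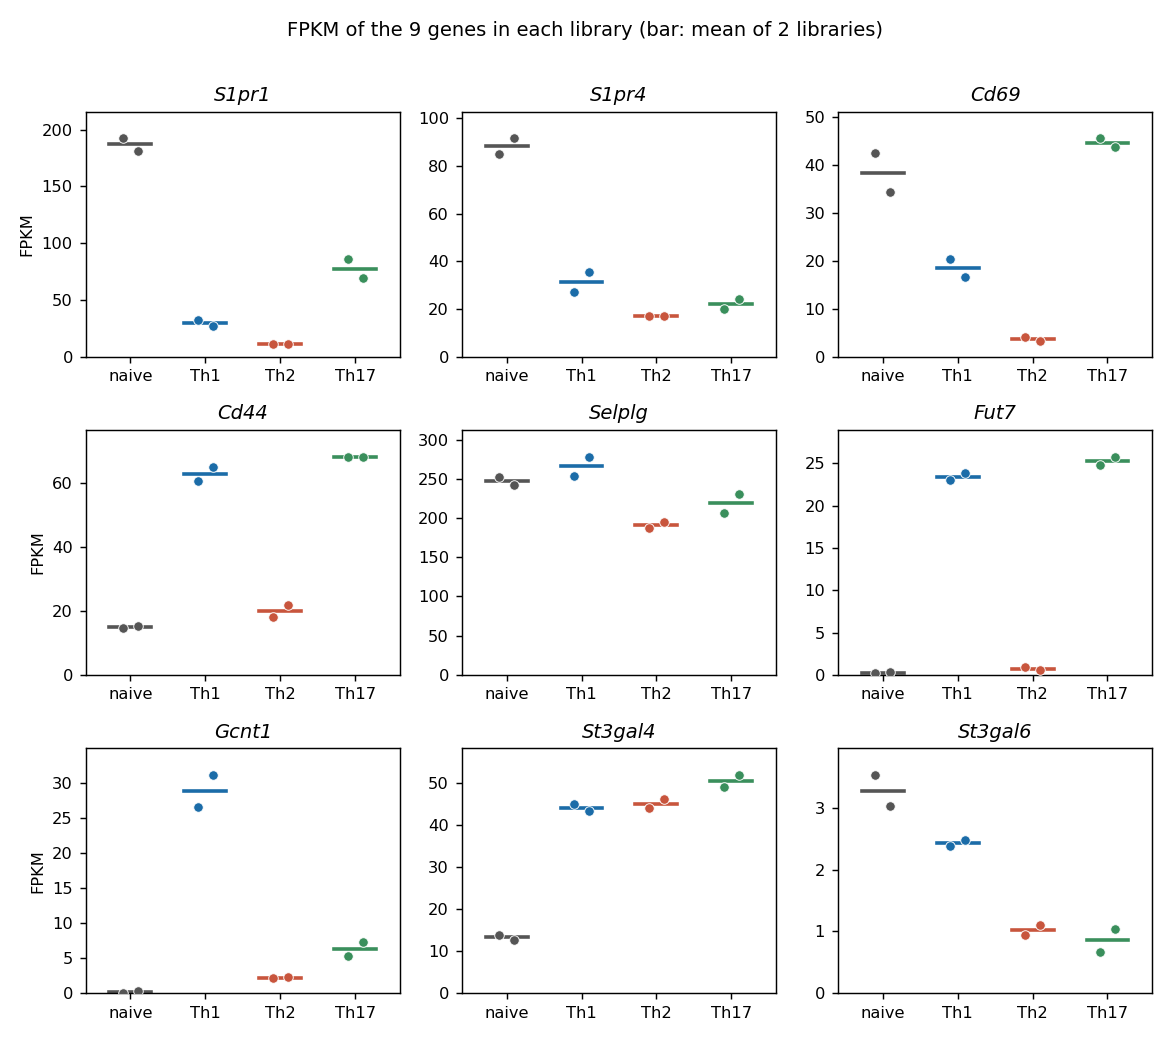
FPKM of the 9 genes in each of the 8 libraries (y axis, 1 panel per gene, each on its own scale), with groups on the x axis. Points are libraries and bars are group means (n = 2). *Fut7* reached 23.0 to 25.8 in Th1 and Th17 libraries and stayed under 1 elsewhere, whereas *S1pr1* was highest in the naive libraries.

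*S1pr1*, the main exit receptor (chromosome 3, 115710433 to 115715055, mm10), was highest in naive cells and lowest in Th2 cells. FPKM was 192 and 182 in the naive libraries, 85.8 and 69.1 in Th17, 32 and 26.8 in Th1, and 11.4 and 11.2 in Th2. No pair of groups overlapped, and the order naive, Th17, Th1, Th2 held in both libraries of each group. Mean FPKM was 187 ± 7.53 in naive cells, 77.4 ± 11.8 in Th17, 29.4 ± 3.70 in Th1 and 11.3 ± 0.140 in Th2 (SD, n = 2). Against naive cells it was 2.41-fold lower in Th17, 6.36-fold lower in Th1 and 16.5-fold lower in Th2. All tests below are limma fits of log2(FPKM + 1) with Benjamini-Hochberg adjustment over the 11198 genes, called at an adjusted p under 0.05. On that scale the differences from naive were -1.27 ± 0.13 (SE; adjusted p = 0.000157) in Th17, -2.63 (adjusted p = 4.86e-06) in Th1 and -3.93 (adjusted p = 6.69e-07) in Th2. Every step between neighbours in the order passed, including Th17 over Th1 (1.37, 95% interval 1.05 to 1.69) and Th1 over Th2 (1.3, 0.98 to 1.62).

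*S1pr4*, an S1P receptor largely restricted to blood cells (chromosome 10, 81497745 to 81500137), was also highest in naive cells. The naive libraries held 85.2 and 91.5 FPKM, the Th1 libraries 27.2 and 35.7, the Th17 libraries 20.1 and 24.2, and the Th2 libraries 17.2 and 17.0. The naive libraries stood apart from all 6 effector libraries. The log2 differences from naive were -1.47 in Th1 (adjusted p = 0.00013), -1.95 in Th17 (adjusted p = 2.87e-05) and -2.30 in Th2 (adjusted p = 1.21e-05). Among the subsets, Th1 cells were higher than Th2 cells (0.83, adjusted p = 0.00461). The step from Th1 to Th17 (0.48, 95% interval 0.13 to 0.83, adjusted p = 0.0572) and that from Th17 to Th2 (0.35, SE 0.15, adjusted p = 0.1) did not pass. Both calls depended on the model, since a replicate block gave an adjusted p of 0.0191 and 0.0369, and the first step also passed after median scaling (adjusted p = 0.0242) and after quantile normalization (adjusted p = 0.0276). Between Th17 and Th2 cells the mean FPKM of *S1pr1* differed 6.84-fold and that of *S1pr4* 1.29-fold.

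*Cd69*, whose protein counters S1PR1 (chromosome 6, 129267325 to 129275369), was high in naive and Th17 cells and lowest in Th2 cells. FPKM was 42.4 and 34.3 in the naive libraries, 45.5 and 43.6 in Th17, 20.5 and 16.7 in Th1, and 4.05 and 3.38 in Th2. Both Th17 libraries lay above both naive libraries, but by 0.22 on the log2 scale with a 95% interval of -0.13 to 0.57, which did not pass (adjusted p = 0.224). *Cd69* fell by 1.01 in Th1 (adjusted p = 0.000786) and by 3.06 in Th2 cells (adjusted p = 2.85e-06) relative to naive cells. Th17 cells exceeded Th2 cells by 12-fold (3.28 on the log2 scale, adjusted p = 1.7e-05) and Th1 cells exceeded Th2 cells by 5.0-fold (2.05, adjusted p = 7.49e-05). *S1pr1* and *Cd69* had the same order among the 3 effector subsets, Th17 over Th1 over Th2, in mRNA level. The mRNA levels give no measure of either protein at the cell surface.

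*Cd44* (chromosome 2, 102811142 to 102901665) was high in Th1 and Th17 cells. FPKM was 60.4 and 64.8 in Th1, 67.9 and 68.1 in Th17, 18.0 and 21.7 in Th2, and 14.7 and 15.3 in the naive libraries. All 4 Th1 and Th17 libraries lay above all Th2 and naive libraries. Because naive cells had been sorted for low surface CD44, the differences from naive cells are tied to the gate: 1.99 in Th1 (4.18-fold), 2.11 in Th17 (4.54-fold) and 0.38 in Th2 (1.33-fold). The difference in Th2 cells passed the test (adjusted p = 0.0169) but not when only these 2 groups were fitted (adjusted p = 0.058), without naive replicate 1 (adjusted p = 0.0699) or without Th2 replicate 2 (adjusted p = 0.0768). Among the cultured cells, which share the gate, Th1 exceeded Th2 by 3.15-fold (1.61 ± 0.11, adjusted p = 5.8e-05) and Th17 exceeded Th2 by 3.43-fold (1.73, adjusted p = 7.01e-05). Th17 and Th1 differed by 0.12, with a 95% interval of -0.14 to 0.38 (adjusted p = 0.491).

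*Selplg*, which encodes PSGL-1 (chromosome 5, 113817798 to 113830501), had the highest level of the 9 genes in each of the 4 groups and varied least. FPKM was 254 and 279 in Th1, 253 and 242 in the naive libraries, 207 and 231 in Th17, and 188 and 196 in Th2. The groups formed a shallow series in which no step between neighbours passed the test. The 2 ends of the series differed by 1.39-fold, with Th1 above Th2 by 0.47 (adjusted p = 0.0122), and Th2 was below naive by 0.37 (adjusted p = 0.0189). Neither call was stable. Th2 against naive was -0.15 with an adjusted p of 0.2 after median scaling, and did not pass without naive replicate 1 (adjusted p = 0.0668) or Th2 replicate 1 (adjusted p = 0.0735). Th1 against Th2 did not pass after quantile normalization (adjusted p = 0.0572), without Th1 replicate 2 (adjusted p = 0.0826) or without Th2 replicate 1 (adjusted p = 0.0505).

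*Fut7* and *Gcnt1*, the fucosyltransferase and the core 2 enzyme of selectin ligands, had the widest ranges among the 9 genes, so their start regions are shown here. The sequences are RefSeq promoter windows on GRCm38.p6, from 250 bases before to 50 bases after each annotated start, written 5′ to 3′ on the strand of the gene. RefSeq windows were found for 6 of the 9 genes (10 windows in all) and not for *S1pr1*, *Cd69* or *Selplg*. Capitals mark every match, on either strand, to 1 of 4 motifs that were searched. The T-box core was written as GTGTGA. For the GATA core the letters were AGATAA. The STAT palindrome was TTCNNNGAA, with N for any base. The KLF core was CACCC. *Fut7* has 2 annotated starts on the plus strand and *Gcnt1* has 3 on the minus strand.
Fut7 chr2:25422992-25423291 (plus strand): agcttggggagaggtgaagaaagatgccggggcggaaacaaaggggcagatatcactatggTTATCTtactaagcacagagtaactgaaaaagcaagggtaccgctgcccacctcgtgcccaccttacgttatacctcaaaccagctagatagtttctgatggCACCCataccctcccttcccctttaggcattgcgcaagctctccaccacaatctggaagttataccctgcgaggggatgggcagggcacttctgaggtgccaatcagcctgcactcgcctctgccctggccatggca
Fut7 chr2:25423444-25423743 (plus strand): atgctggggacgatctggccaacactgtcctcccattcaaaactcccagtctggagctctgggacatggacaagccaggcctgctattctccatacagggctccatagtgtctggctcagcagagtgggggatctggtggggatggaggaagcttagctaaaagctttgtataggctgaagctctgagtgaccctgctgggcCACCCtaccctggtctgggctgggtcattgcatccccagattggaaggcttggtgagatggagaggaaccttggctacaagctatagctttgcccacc
Gcnt1 chr19:17372795-17373094 (minus strand): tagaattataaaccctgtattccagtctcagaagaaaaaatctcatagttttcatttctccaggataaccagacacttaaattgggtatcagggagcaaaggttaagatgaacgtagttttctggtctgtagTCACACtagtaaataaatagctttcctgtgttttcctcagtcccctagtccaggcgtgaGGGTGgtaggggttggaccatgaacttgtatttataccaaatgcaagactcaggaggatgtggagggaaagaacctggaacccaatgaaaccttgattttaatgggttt
Gcnt1 chr19:17356618-17356917 (minus strand): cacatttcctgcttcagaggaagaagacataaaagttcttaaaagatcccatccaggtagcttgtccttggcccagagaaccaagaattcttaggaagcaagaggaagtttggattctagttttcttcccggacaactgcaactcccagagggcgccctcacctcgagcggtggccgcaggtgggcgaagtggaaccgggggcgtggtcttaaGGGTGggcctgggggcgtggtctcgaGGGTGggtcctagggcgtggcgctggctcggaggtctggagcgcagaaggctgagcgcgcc
Gcnt1 chr19:17339456-17339755 (minus strand): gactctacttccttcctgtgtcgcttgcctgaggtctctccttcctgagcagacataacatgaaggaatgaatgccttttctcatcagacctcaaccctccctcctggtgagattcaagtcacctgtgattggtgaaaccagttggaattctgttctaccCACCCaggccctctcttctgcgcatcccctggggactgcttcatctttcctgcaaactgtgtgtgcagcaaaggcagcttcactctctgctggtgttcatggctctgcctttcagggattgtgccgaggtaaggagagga

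The first *Fut7* window held a reverse GATA core 189 bases before the start and a KLF core 87 bases before it, and the second held a KLF core 48 bases before the start. The first *Gcnt1* window held a reverse T-box core 118 bases before its start. Each of the 3 *Gcnt1* windows held at least 1 KLF core. Of all 32851 windows, 14.5% held the T-box core, 11.2% the GATA core, 8.3% the STAT palindrome and 57.5% the KLF core, so single matches are frequent. The STAT palindrome had no match in any of the 10 windows. Matches are descriptions of the letters, and factor binding was not measured.

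*Fut7* (chromosome 2, 25423694 to 25426373) was present in Th1 and Th17 cells and near 0 in the other groups. FPKM was 23.0 and 23.8 in Th1, 24.8 and 25.8 in Th17, 0.902 and 0.525 in Th2, and 0.168 and 0.281 in the naive libraries. The 4 Th1 and Th17 libraries lay within a narrow band far above the other 4 libraries. *Fut7* passed the filter only through the Th1 and Th17 libraries. Its differences between these and the other groups are therefore descriptions. Against Th2 cells *Fut7* was 32.8-fold higher in Th1 (3.84 ± 0.12 on the log2 scale, adjusted p = 3.08e-06) and 35.4-fold higher in Th17 (3.95, adjusted p = 4.67e-06). Against naive cells the log2 differences were 4.32 (adjusted p = 4.21e-07) and 4.42 (adjusted p = 3.38e-07). No fold is given against naive cells, since *Fut7* rested there on 4.69 and 8.41 fragments per library. In the Th2 libraries it rested on 23.9 and 24.0 fragments, so the folds against Th2 are imprecise. Th1 and Th17 cells differed by 0.11 with a 95% interval of -0.19 to 0.40 (adjusted p = 0.602). Th2 cells were above naive cells by 0.48 (adjusted p = 0.0113), but after quantile normalization the difference was -0.26 (adjusted p = 0.0492), and without naive replicate 1 it did not pass (adjusted p = 0.0589), so no direction is given for Th2 against naive.

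*Gcnt1* (chromosome 19, 17326141 to 17372844) was graded across all 4 groups, with Th1 on top. FPKM was 26.6 and 31.2 in Th1, 5.26 and 7.21 in Th17, 2.12 and 2.20 in Th2, and 0.0399 and 0.221 in the naive libraries. No groups overlapped, and each step between neighbours passed. Th1 exceeded Th17 by 4.63-fold (2.05 ± 0.16, adjusted p = 0.000191), and Th17 exceeded Th2 by 2.89-fold (1.18, adjusted p = 0.00163). Th2 exceeded naive cells by 1.49 on the log2 scale (adjusted p = 0.000151), and Th1 did so by 4.72 (adjusted p = 7.45e-07). The naive libraries held 2.68 and 20.2 fragments of *Gcnt1*, so no fold is given against them. *Gcnt1* passed the filter only through the effector libraries, so its differences from naive cells are descriptions. Th17 cells were thus called lower than Th1 cells for *Gcnt1* and not for *Fut7*.

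*St3gal4* (chromosome 9, 35046579 to 35116810) rose in all 3 effector subsets. The Th17 libraries held 49.1 and 52.0 FPKM, the Th2 libraries 43.9 and 46.0, the Th1 libraries 44.9 and 43.3, and the naive libraries 13.9 and 12.6. The naive pair stood well below the other 6 libraries, which spanned a narrow range. The log2 differences from naive cells were 1.66 in Th1 (3.33-fold, adjusted p = 6.32e-06), 1.69 in Th2 (3.39-fold, adjusted p = 4.79e-06) and 1.86 in Th17 (3.81-fold, adjusted p = 3.3e-06). Between subsets no difference passed: the 95% interval was -0.05 to 0.38 for Th17 over Th2 and -0.19 to 0.24 for Th2 over Th1. The sign of Th17 against Th2 was negative after median scaling (-0.04), and that of Th1 against Th2 turned without Th2 replicate 2. Of its exonic bases, 14.1% overlap 4930581F22Rik on the other strand, which was listed at 3.46 to 5.99 FPKM.

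*St3gal6* (chromosome 16, 58470541 to 58523312), the second α2,3-sialyltransferase, was low throughout and was lower in Th2 and Th17 cells than in naive cells. The naive libraries held 3.55 and 3.03 FPKM and the Th1 libraries 2.39 and 2.49, against 0.943 and 1.10 for Th2 and 0.670 and 1.04 for Th17. The naive and Th1 libraries all lay above the Th2 and Th17 libraries. Against naive cells it was lower in Th2 by 3.22-fold (-1.09, adjusted p = 0.000304) and in Th17 by 3.84-fold (-1.21, adjusted p = 0.000186), whereas Th1 was at -0.32 (adjusted p = 0.0709). The Th1 value passed after quantile normalization (-0.57, adjusted p = 0.00638), and without Th17 replicate 1 (adjusted p = 0.0408) or Th17 replicate 2 (adjusted p = 0.0411). Th1 exceeded Th2 by 0.77 (adjusted p = 0.00406) and Th17 by 0.90 (adjusted p = 0.00334). These values rested on 30.0 to 113 fragments per library. Of the exonic bases of *St3gal6*, 26.0% overlap *Dcbld2* on the other strand, which was listed at 0.0908 to 0.757 FPKM. The labels and the methods name different library kits, 1 stranded and 1 not, so reads of such overlapping pairs may not have been told apart.

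**Figure D2:**
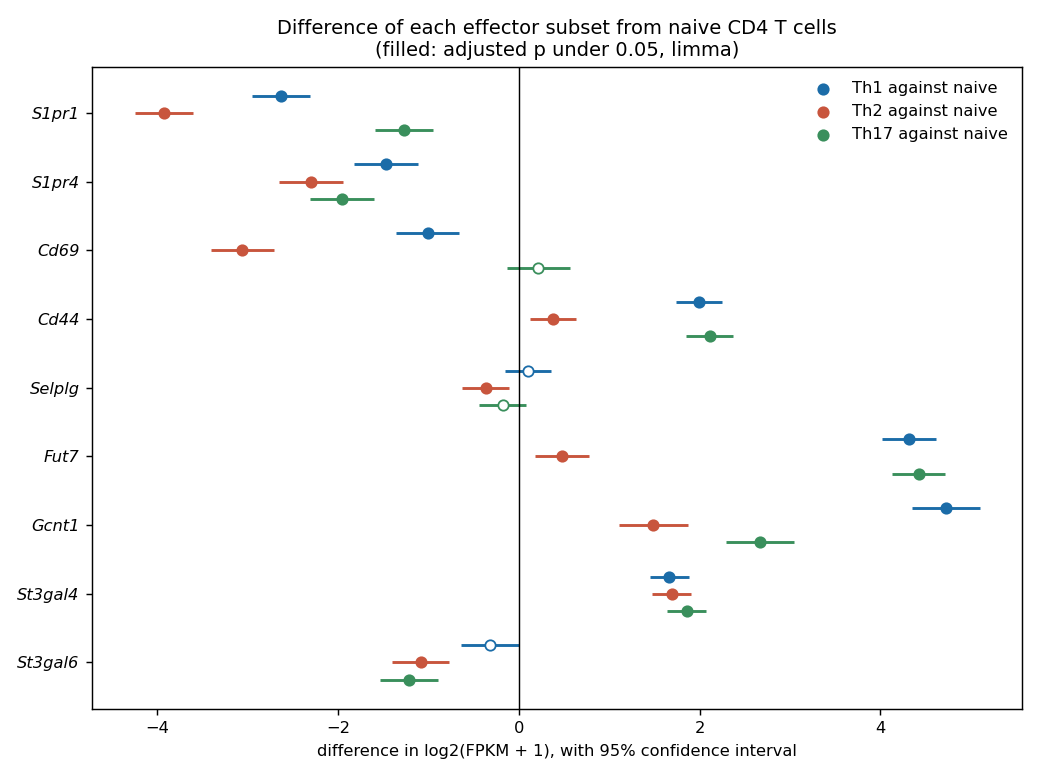
Difference of each effector subset from naive cells for the 9 genes (x axis, log2(FPKM + 1) scale), with 95% intervals from the limma fit and filled symbols for adjusted p under 0.05. *S1pr1* and *S1pr4* lay below 0 in all 3 subsets and *St3gal4* above 0 in all 3, whereas *Fut7* reached 4.32 in Th1 and 4.42 in Th17 but 0.48 in Th2 (-0.26 after quantile normalization).

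Against naive cells, 4 of the 9 genes were called higher and 3 lower in Th1, beside 33.8% and 33.5% of all tested genes. For Th2 the numbers were 4 higher and 5 lower (31.8% and 38.7% of all tested genes), and for Th17 4 higher and 3 lower (37.5% and 29.8%). Without naive replicate 1, 2 genes rather than 4 were called higher in Th2 cells. In either direction 67.3% of all tested genes were called in Th1, 70.5% in Th2 and 67.3% in Th17, so being called does not set these genes apart, and the 3 comparisons share the naive libraries. *Cd44*, *Fut7*, *Gcnt1* and *St3gal4* made up the higher calls in each subset, with the sign of *Fut7* in Th2 turned by quantile normalization. *S1pr1* and *S1pr4* were called lower in each, joined by *Cd69* in Th1, by *St3gal6* in Th17, and by *Cd69*, *St3gal6* and *Selplg* in Th2. Of the genes called higher, *Fut7* passed the filter only through the Th1 and Th17 libraries, and *Gcnt1* only through the effector libraries. Over the 9 genes the median difference came to 0.10 for Th1, -0.37 for Th2 and 0.22 for Th17, beside -0.01, -0.11 and 0.08 over all tested genes. Scaling moved the whole distribution: in Th2 against naive, 3560 genes were higher and 4335 lower with the deposited FPKM, which median scaling changed to 4271 and 3477. In Th17 against naive, quantile normalization changed 4197 higher and 3337 lower to 3408 and 4305.

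**Figure D3:**
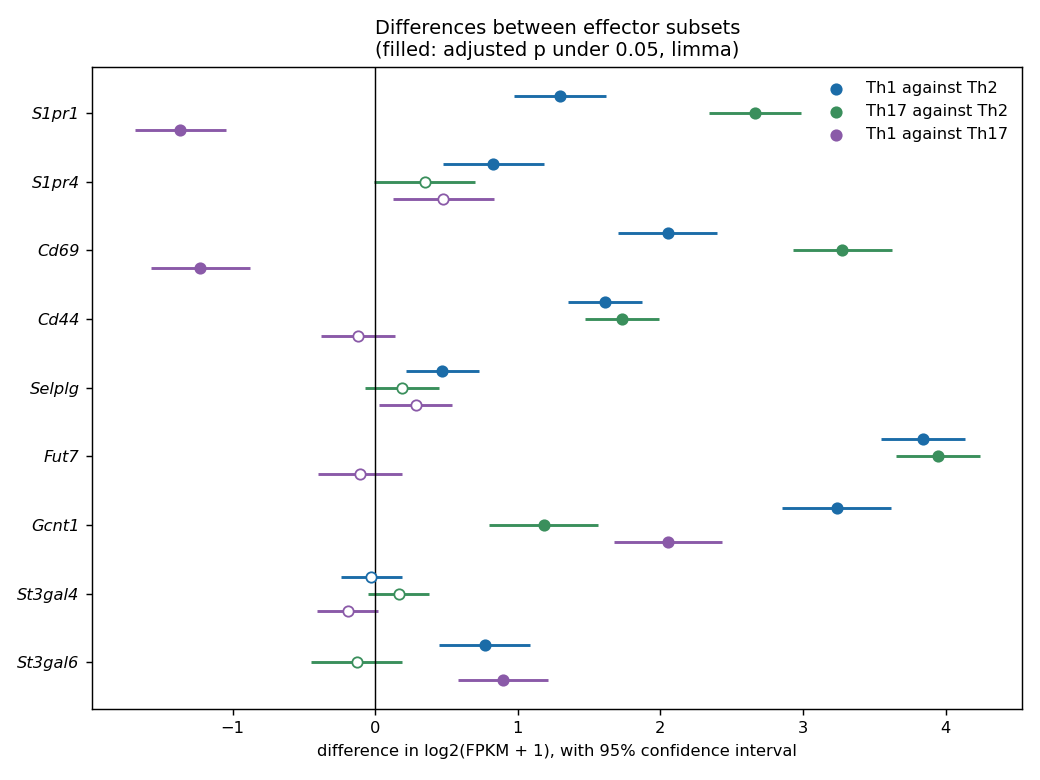
Differences between effector subsets for the 9 genes (x axis, log2(FPKM + 1) scale), with 95% intervals from the limma fit and filled symbols for adjusted p under 0.05. In Th1 against Th2 every gene but *St3gal4* was called higher, and in Th17 against Th2 the called genes were *S1pr1*, *Cd69*, *Cd44*, *Fut7* and *Gcnt1*.

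Between the cultured subsets the calls ran in 1 direction against Th2. Of the 9 genes, 8 were called higher in Th1 than in Th2 and 0 lower, at the threshold and at an unadjusted p under 0.05 alike, beside 27.4% higher, 16.9% lower and 44.3% in all among tested genes. Of the 9, 5 were called higher in Th17 than in Th2 and 0 lower, beside 31.7% higher, 12% lower and 43.6% in all. Both counts include *Fut7*, which passed the filter only through the Th1 and Th17 libraries. The median difference over the 9 genes was 1.3 and 1.18 in these comparisons, beside 0.11 and 0.18 over all tested genes, and the comparisons share the Th2 libraries. As deposited, 3065 genes were higher and 1896 lower in Th1 against Th2, which median scaling made 2377 and 2376. In Th17 against Th2, 3546 were higher and 1339 lower, which median scaling made 2213 and 2129. The calls of the 9 genes in both comparisons still numbered 8 and 5 with median scaling, whereas quantile normalization gave 7 and 5. In Th1 against Th17, *Gcnt1* and *St3gal6* were called higher in Th1 and *S1pr1* and *Cd69* in Th17, beside 9.17% of all tested genes higher, 16% lower and 25.1% in all (1027 and 1788 genes, and 1309 and 1458 after median scaling). With median scaling *S1pr4* (0.56, adjusted p = 0.0242) and *Selplg* (0.37, adjusted p = 0.033) were called higher in Th1 than in Th17 as well.

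Other genes of the same pathways were described from 11 lists of 93 genes, of which 69 were tested. Against naive cells 30 of the 69 were called higher and 22 lower in Th1, with 27 and 26 for Th2 and 33 and 19 for Th17. The shares of all tested genes to set beside these numbers, and beside those of each list that follow, are those given above, 33.8% higher and 33.5% lower in Th1, 31.8% and 38.7% in Th2 cells, and 37.5% and 29.8% in Th17 cells. The lists are small and were not tested as sets. From each list up to 4 genes with the widest differences from naive cells were named. Some, such as *S1pr3*, *Sphk1*, *Galnt3*, *St3gal5*, *Fut4*, *Papss2*, *Chst2* and *Selp*, passed the filter only through the groups where they were high. Differences of such genes are descriptions. Among the other S1P receptors, *S1pr2*, which couples to G proteins that restrain migration, had a mean FPKM of 2.83 in naive cells and 6.28 in Th1, 8.49 in Th2 and 11.2 in Th17, and was called higher in all 3. *S1pr3* was listed at 0 and 0.0103 in the naive libraries, reached 1.72 in Th1, 0.548 in Th2 and 2.13 in Th17, and was called higher in all 3, although the call in Th2 was lost after quantile normalization (adjusted p = 0.139). *S1pr5* stayed below the filter, with no library above 0.159 FPKM. The fall of *S1pr1* and *S1pr4* was thus not shared by *S1pr2*. *S1pr3* was near 0 in naive cells and could not have fallen.

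Of 10 genes for S1P supply, export and breakdown, 5 were tested, with 2 higher and 3 lower in Th1, 1 and 2 in Th2 cells, and 2 and 2 in Th17 cells. *Ppap2c*, a lipid phosphate phosphatase gene, was higher in every subset (mean FPKM 0.547 in naive cells, 9.29 to 15.1 in the subsets). *Sphk1*, which makes S1P, was listed at 0 in both naive libraries and was at 4.85 and 8.35 in the Th17 libraries against at most 0.654 in the other effector libraries. Th17 exceeded Th2 by 2.35 on the log2 scale (adjusted p = 0.000318), but *Sphk1* passed the filter only through the Th17 libraries. Of the 8 genes for receptor signaling and desensitization, 3 were higher and 3 lower in Th1, 2 and 4 in Th2 cells, and 3 and 3 in Th17 cells. *Rgs1*, an inhibitor of G protein signaling downstream of chemoattractant receptors, had a mean of 9.95 FPKM in naive cells and rose to 342 in Th2, 192 in Th17 and 168 in Th1. *Arrb1* rose from 11.2 to between 56.2 and 77.9, whereas *Arrb2*, the other β-arrestin gene, fell from 138 to between 51.8 and 102. *Dock2*, a Rac activator needed for lymphocyte migration, fell from 117 to between 27.8 and 55.8 FPKM.

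Of the 7 transcription factor genes linked to *S1pr1* or CD69, 6 were tested, with 1 higher and 3 lower in Th1, and 2 higher and 3 lower in both Th2 and Th17. *Klf2*, an activator of *S1pr1*, fell from a mean of 239 FPKM in naive cells to 14.1 in Th1, 10.9 in Th2 and 8.38 in Th17. No difference in *Klf2* between 2 subsets passed the test (adjusted p = 0.109 to 0.335), which with n = 2 does not show equal levels. *S1pr1* was called in each of these comparisons. *Foxo1*, an upstream activator of *Klf2*, was at 69.7 in naive cells, 42.4 in Th2, 21.5 in Th1 and 16.9 in Th17, and was called lower in all 3 subsets. In Th2 cells *Foxo1* was higher than in Th17 cells (adjusted p = 0.000172), and *S1pr1* was lower. The part of these factors in the *S1pr1* levels was not tested. *Prdm1*, which encodes Blimp-1, rose to 22.5 in Th1 and 13.0 in Th2 from 2.03, and was at 3.14 in Th17, where the sign of the difference turned after quantile normalization. *Klf3* fell to between 1.63 and 6.29 from 71.5.

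Among 13 genes of O-glycan cores and galactose extension, 10 were tested, with 3 higher and 4 lower in Th1, 2 and 6 in Th2 cells, and 2 and 5 in Th17 cells. *Galnt3*, which starts O-glycans, was at 4.25 in Th1 and 1.32 in Th17 against 0.0899 in Th2 and 0.101 in naive cells. *Gcnt2*, which branches poly-lactosamine, was highest in Th17 (11.2) and Th2 (8.32), above 1.38 in Th1. *B4galt1*, which adds galactose, was lower in every subset, from 69.6 to between 23.3 and 40.5. All 7 other sialyltransferase genes were tested, with 4 higher and 2 lower in Th1, 5 and 1 in Th2 cells, and 5 and 0 in Th17 cells. *St3gal1*, which caps core 1 and so competes with core 2 branching, was at 34.5 in naive cells, fell to 14.6 in Th1, and rose to 94.0 in Th2 and 74.5 in Th17. Th1 was below Th2 by 2.6 on the log2 scale (adjusted p = 1.63e-05). *St6galnac6* was highest in Th17 (21.4), *St3gal5* in Th2 (4.74), and *St3gal2* was at 13.3 in Th1 and 12.3 in Th17.

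Of 12 genes for other fucosyltransferases and fucose supply, 9 were tested, with 3 higher and 5 lower in Th1, 2 and 5 in Th2 cells, and 3 and 3 in Th17 cells. *Fut4*, which also adds α1,3-linked fucose, had mean FPKM of 3.14 in Th1, 1.69 in Th17, 0.467 in Th2 and 0.0886 in naive cells. It was above Th2 in Th1 (1.5, adjusted p = 0.000104) and in Th17 (0.87, adjusted p = 0.00153), as *Fut7* was, at a lower level. Both genes passed the filter only through the Th1 and Th17 libraries, so these differences are descriptions. *Gmds*, of GDP-fucose synthesis, was higher in all 3 subsets and *Slc35c1*, the Golgi GDP-fucose transporter, lower in all 3. The core fucosyltransferase gene *Fut8* was highest in Th1 (18.8). Of the 5 sialic acid supply genes, 2 were higher (*Cmas* and *Nans*) and 1 lower (*Gne*) in every subset, with the call of *Gne* in Th2 lost after median scaling (adjusted p = 0.0748). Of the 8 sulfation genes, 7 were tested, with 6 higher and 0 lower in Th1, and 5 higher and 1 lower in both Th2 and Th17. *Tpst1*, a tyrosine sulfotransferase gene, rose in every subset to between 6.63 and 9.75 from 3.84. *Papss2*, which makes the sulfate donor, was at 20.6 in Th2 against 0.475 in Th1 and 2.06 in Th17 (Th1 against Th2 -3.87, adjusted p = 2.55e-06). *Papss2* passed the filter only through the groups where it was high, so this difference is a description. *Chst2* was at 2.82 in Th1 and between 0.207 and 0.535 in the other groups.

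Of 9 genes for other selectin ligand backbones and selectins, 4 were tested, with 2 higher and 0 lower in Th1, 2 and 1 in Th2 cells, and 3 and 0 in Th17 cells. *Cd24a*, a P-selectin ligand in mouse cells, was at 76.8 in Th17 and 52.8 in Th2 against 3.04 in Th1 and 3.45 in naive cells. *Spn*, which encodes CD43, was lower in Th2 cells (60.6 against 143 in naive cells, adjusted p = 0.000347). Of 11 genes for CD44 ligands and cytoskeletal partners, 6 were tested, with 2 higher and 1 lower in Th1, 2 and 2 in Th2 cells, and 4 and 1 in Th17 cells. *Spp1*, which encodes the CD44 ligand osteopontin, rose from 0.054 FPKM in naive cells to 32.8 in Th1, 8.26 in Th2 and 13.7 in Th17. *Msn*, which encodes moesin, was lower in all 3 subsets, from 281 to 115 in Th2 and to 216 and 224 in Th1 and Th17. *Nf2*, which encodes merlin, was higher in all 3.

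Scaling changed some calls of the named genes against naive cells. After quantile normalization the calls lost in Th1 were those of *B3gnt3*, *Sphk1*, *Papss2* and *St3gal5*, the last 2 with a turned sign. In Th2 cells the lost calls were those of *S1pr3* and, with a turned sign, *Fut4*. In Th17 cells they were those of *B3gnt3*, *Fut4* (0.30, adjusted p = 0.0504), *Galnt3* and, with a turned sign, *Prdm1*. Median scaling lost the call of *Gne* in Th2 cells. In Th17 against Th2, the calls of *Cd24a*, *Gcnt2*, *Fut8* and *S1pr2* were lost after both scalings and that of *Arrb2* after median scaling.

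**Figure D4:**
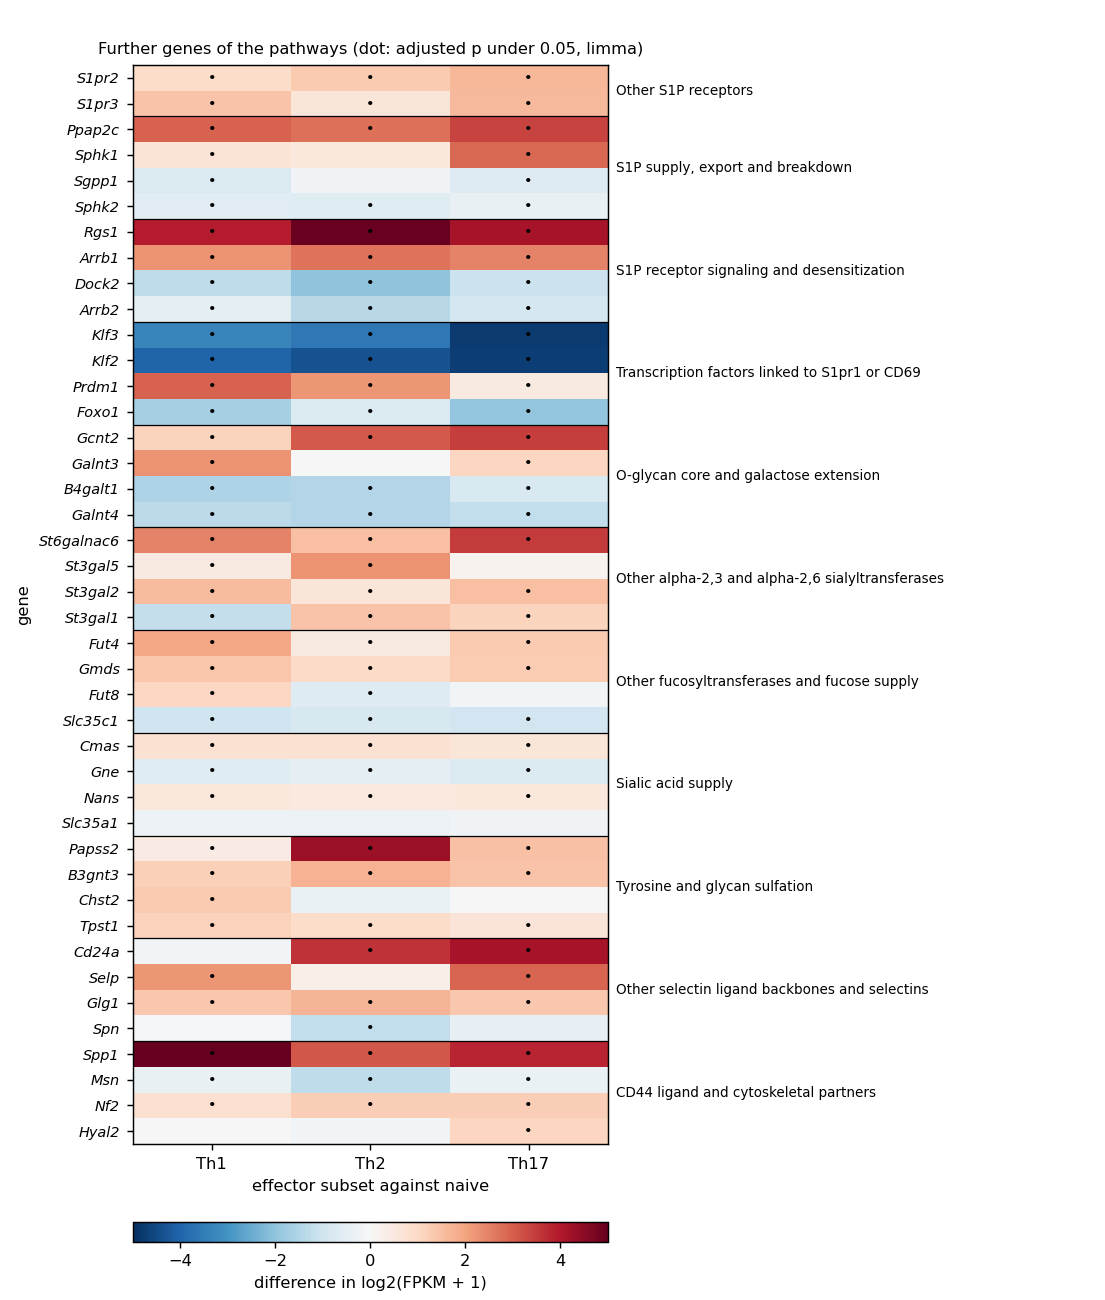
Differences from naive cells (color, log2(FPKM + 1) scale) of the 42 named genes of the pathway lists (rows, grouped by list) in Th1, Th2 and Th17 cells (columns). Dots mark adjusted p under 0.05 by limma. *Klf2* and *Klf3* were lower in all 3 columns, and *Papss2* stood out in the Th2 column.

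For each of the 9 genes, the 2 tested genes with the highest Pearson's r of log2(FPKM + 1) over the 8 libraries were noted. These are descriptions, since the 8 points fall into 4 groups. For *S1pr1* they were *Wdr47* and *Dph5* (both r = 0.998), which lie on its chromosome, 7064713 and 173127 bases from *S1pr1*. Whether such distances matter was not tested. For *Fut7* they were *Ptgr1* (r = 0.998) and *Nov* (r = 0.997), and for *Gcnt1* *Gad2* (r = 0.997) and *Stk39* (r = 0.996). For *S1pr4* they were *B4galnt1*, 45665018 bases away on the same chromosome, and *Cpsf7* (both r = 0.996). For *Cd69* they were *Gatc* and *Trp53i13* (both r = 0.990), and for *Cd44* *Psma4* (r = 0.995) and *Ppm1j* (r = 0.994). For *Selplg* they were *Aplp2* (r = 0.987) and *Gstp2* (r = 0.985), for *St3gal4* 4930583H14Rik and 1700019E19Rik (both r = 0.998), and for *St3gal6* *Ppp3ca* and *Gpr97* (both r = 0.981).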

How the data were processed

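RNA had been sequenced from 8 libraries of mouse CD4 T cells, 2 per group. The authors aligned the reads to mm10 and deposited 1 table of FPKM per library, made with Cufflinks, with an interval and a status for each gene. The submitters' processing notes name Bowtie 0.12.8, TopHat 1.3.2 and Cufflinks 2.0.2. Here, rows that share a symbol were summed, and genes with a mean of at least 1 FPKM over the 8 libraries were kept (11198 genes). FPKM are not counts, so log2(FPKM + 1) was fitted with limma 3.58.1 (lmFit, then eBayes with a mean-variance trend) in R 4.3.3, with all 4 groups in 1 model and 6 comparisons. The Benjamini-Hochberg adjustment ran over all tested genes, and a gene was called at an adjusted p under 0.05. Differences on this scale understate the change of low genes. Folds are ratios of mean FPKM. Fragments per gene and library were worked out from the width of the deposited intervals and are approximate. The method was tested on simulated data made with the means and spreads of the 11198 genes. For Th1 against naive it recovered 76% of 100 genes changed by 1 on the log2 scale and 96% of 100 changed by 2. Of its calls 3.37% were false. Only these genes were changed there, with independent noise, whereas 67.3% of tested genes were called in the real comparison. The rates therefore need not hold for the real data. The alternatives were another pseudocount (0.1), other filters, 2 scalings, fits of only the groups compared, no trend, a replicate block, the highest row per symbol, and each library left out in turn. From each pathway list the 4 tested genes (or all, if fewer) with the largest absolute difference from naive cells in any subset were named. The 9 genes and the lists were chosen with earlier results of these data known. Promoter windows came from RefSeq (GRCm38.p6). Python 3.11.15, pandas 2.3.3 and numpy 2.4.6 were used for the tables.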

Additional observations from a re-analysis of the deposited data

Results flagged for a closer look

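For 8 of the 9 genes, the difference from naive cells was called unlike in at least 1 pair of effector subsets. Each comparison of 2 subsets in the limma fit is itself the test of that, since the naive libraries cancel out. Of all tested genes, 44.3% were called in Th1 against Th2, 43.6% in Th17 against Th2 and 25.1% in Th1 against Th17. The share called in at least 1 of the 3 was not worked out, so the 8 cannot be set against it. Comparisons with an adjusted p under 0.05 are given here as differences on the log2(FPKM + 1) scale. *S1pr1* differed in all 3 comparisons, at 1.3 for Th1 against Th2, 2.66 for Th17 against Th2 and -1.37 for Th1 against Th17. *S1pr4* differed in Th1 against Th2 (0.83). *Cd69* gave 2.05 and 3.28 against Th2 in Th1 and Th17, and -1.23 for Th1 against Th17. *Cd44* gave 1.61 and 1.73 against Th2 in Th1 and Th17, and *Fut7* 3.84 and 3.95. *Fut7* passed the filter only through the Th1 and Th17 libraries, so its values are descriptions. *Gcnt1* gave 3.24 and 1.18 against Th2 in Th1 and Th17, and 2.05 for Th1 against Th17. *Selplg* differed by 0.47 in Th1 against Th2, a call that was lost after quantile normalization (adjusted p = 0.0572). *St3gal6* was higher in Th1 by 0.77 against Th2 and by 0.90 against Th17.

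Among the named genes of the pathway lists, those with a called difference of at least 2 between subsets are given by their largest value. For Th1 against Th2 these were *Galnt3* (2.27), *St3gal1* (-2.6) and *Papss2* (-3.87). For Th17 against Th2 they were *Sphk1* (2.35), *St3gal5* (-2.04) and *Selp* (2.61). For Th1 against Th17 they were *Prdm1* (2.49), *Gcnt2* (-2.36) and *Cd24a* (-4.27). *Galnt3*, *Papss2*, *Sphk1*, *St3gal5* and *Selp* passed the filter only through the groups where they were high, so their values are descriptions.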

How the results depend on the processing

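Of 486 differences of the 9 genes recomputed under 9 settings, 472 kept their sign and their side of the threshold, as did 420 of 432 when each of the 8 libraries was left out in turn. Among the settings, only the other pseudocount and both scalings could change a difference itself, and the rest only its p-value. A library left out could change a difference only in comparisons of its own group. Much of this agreement was therefore fixed in advance. The cause of the changes was not tested, and a group left with 1 library was assumed to vary like the others. With median scaling, *Selplg* (-0.017) and *St3gal4* (-0.038) changed sign in Th17 against Th2, neither called before or after, 4 rather than 2 of the 9 genes were higher in Th1 than in Th17, and the numbers of all genes higher and lower in Th17 against Th2 became 2213 and 2129 (3546 and 1339 as deposited). With quantile normalization these were 2256 and 2191, *Selplg* changed sign in Th1 against naive (-0.27, adjusted p = 0.0516) and was called lower in Th17 than in naive cells (-0.52, adjusted p = 0.00359), and *Fut7* changed sign in Th2 against naive (-0.26). Without 1 library, *St3gal4* in Th1 against Th2 ranged from -0.061 to 0.0061 and *St3gal6* in Th17 against Th2 from -0.27 to 0.017. Of the 9 genes, 2 to 4 were then higher in Th2 than in naive cells. Over all genes, those higher ranged from 1753 to 3030 in Th1 against Th2, 1861 to 3548 in Th17 against Th2 and 557 to 1020 in Th1 against Th17, and those lower from 877 to 1328 in Th17 against Th2 and 954 to 1739 in Th1 against Th17. The lowest numbers came without Th1 replicate 2 or Th17 replicate 2. Numbers also moved by over 1.5 times without Th1 replicate 1 (996 lower in Th1 against Th17), without Th2 replicate 2 (1889 higher in Th1 against Th2, 2146 higher and 891 lower in Th17 against Th2) and without Th17 replicate 1 (581 higher and 1153 lower in Th1 against Th17). Without Th1 replicate 1, *S1pr4* was called higher in Th1 than in Th17 (0.67, adjusted p = 0.0328). The difference between replicates 1 and 2 was partly shared by the groups (r across genes of 0.138 to 0.294 for pairs of groups), but nothing states that a number marks a shared batch. With a replicate block, *S1pr4* was called also in Th17 against Th2 (0.35, adjusted p = 0.0369) and in Th1 against Th17 (0.48, adjusted p = 0.0191), and no other call of the 9 genes changed. Both scalings were run on the pathway list genes after the data were seen. Of 414 calls of these genes over the 6 comparisons, median scaling changed 37 and quantile normalization 52, counting calls gained, lost or turned in sign, and the report names the lost ones of the named genes.

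Each group had 2 libraries. *Fut7* and *Gcnt1* in naive cells rested on 2.68 to 20.2 fragments, *Fut7* in Th2 cells on 23.9 and 24.0, and *St3gal6* on 30.0 to 113. Their levels there are imprecise.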

Other observations

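*Selp*, which encodes P-selectin itself and is best known from platelets and endothelium, was at 6.03 and 8.82 FPKM in the Th17 libraries and at 4.16 and 3.93 in the Th1 libraries, against 0.38 and 0.349 for Th2 and 0.054 and 0.149 for naive cells. It was called higher than naive in Th1 (2.20, adjusted p = 2.93e-05) and Th17 (2.92, adjusted p = 6.48e-06) on the log2(FPKM + 1) scale. *Selp* passed the filter only through the Th1 and Th17 libraries, so these differences are descriptions. The platelet gene *Pf4* was at 7.69 and 4.32 in the Th2 libraries and at 5.83 and 4.96 in the Th17 libraries, against 0.17 and 0.356 for Th1 and 0 and 0.114 for naive cells. *Itga2b*, a further platelet gene, was at 1.35 and 1.70 in the naive libraries and at 0.69 to 0.881 in the effector libraries. The Th2 libraries had low *Selp* beside *Pf4* values of at least 4.32. The part of platelets in the *Selp* values was not tested.

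The neutrophil granule genes *Mpo* and *Elane* separated the replicates of the effector groups. In replicate 1 of the 3 effector groups *Mpo* was between 2.46 and 4.89 FPKM and *Elane* between 2.59 and 3.71, whereas in replicate 2 *Mpo* was at most 0.106 and *Elane* was listed at 0.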
